A study of Mus musculus with 18 samples.

Results

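Mitochondrial ribosomal proteins are encoded in the nucleus, and their mRNAs were followed here through the maturation of mouse oocytes with and without Lsm14b. The set was defined by name: of the 27874 genes of the deposited table, 76 were annotated as protein coding with a symbol of the form Mrpl or Mrps followed by a number, 48 with the Mrpl prefix and 28 with the Mrps prefix. Oocytes came from Lsm14b-/- mice (KO) and from wild-type mice (WT). They were taken with an intact germinal vesicle (GV), in metaphase I (MI), or 14 h after hCG, the hormone that triggers maturation, which the labels denote as MII for both genotypes. Each of the 6 groups had 3 replicate libraries of 15 oocytes. The labels do not say how many KO oocytes were in metaphase II at the last time. They also do not say whether replicates came from separate animals, so p-values measure only the spread between these libraries. LSM14B is a cytoplasmic RNA-binding protein of the oocyte, and the comparison asks which stored mRNAs differ without it.

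The mitochondrial ribosome is built from rRNAs made inside the organelle and from proteins that are all imported from the cytosol. It translates the few mRNAs of the mitochondrial genome, which encode core subunits of the respiratory chain and of ATP synthase. A growing mouse oocyte stores mRNAs of this kind, stops transcription before meiosis resumes, and then translates or degrades stored mRNA while it matures. Levels during maturation are therefore read from a stock that is no longer renewed.

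Levels were read as FPKM (reads scaled by exon length and by the reads of the library), as deposited, which sets each gene against the rest of its library and not against the RNA of an oocyte. Fewer oocytes with an mRNA and less of it in each of the 15 oocytes of a library cannot be told apart. Libraries were primed with oligo(dT) on polyadenylated RNA, so less mRNA and a shorter poly(A) tail cannot be told apart either. This holds between stages and between genotypes, and a fall or rise below is one of measured level. Libraries held 14227763 to 17183681 reads behind the FPKM values. The targeted gene, Lsm14b, had 0.114, 0.234 and 0 FPKM in KO GV libraries, against 2.57, 2.28 and 2.04 FPKM in WT GV libraries, and its KO values were lower than its WT values at MI and MII too. All 14 oocyte markers were detected in every library, with sums of 20483 to 44171 FPKM, while the 15 cumulus and granulosa markers summed to 3.81 to 10.2 FPKM, highest in KO GV libraries, with 4 to 10 of them at 0. Theca, stroma and endothelium markers summed to 2.40 to 6.89 FPKM and blood markers to 0.507 to 29.8 FPKM, the highest in WT MI replicate 2. KO GV replicates 2 and 3 varied most within their group: the SD of their deviations over genes was 0.522 and 0.476 log2, against at most 0.327 in the other libraries.

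The 3′ ends of a few members are shown because the 3′ UTR of a stored mRNA carries the signals for its poly(A) tail. The cytoplasmic polyadenylation element (CPE), searched as TTTTAT or TTTTAAT, is the site of the CPEB proteins. The hexamer AATAAA is the polyadenylation signal. For the counts, the CPE was searched in the last 100 bases of the 3′ UTR and the hexamer in the last 40. A 3′ UTR shorter than the window was searched whole. Sequences are from GENCODE vM21 transcripts, mouse build GRCm38 (mm10), written 5′ to 3′ as DNA on the mRNA strand, with CPE and hexamer in capitals. Mrpl44 and Mrpl3 were called higher in WT MII than in WT GV oocytes, Mrps14 passed in no comparison of MII with GV, and Mrpl14, Mrps33 and Mrps6 were called lower in WT MII than in WT GV oocytes. The 6 were picked after their values were seen.
Mrpl44: cagctagatgtaTTTTATtccctccagctt
Mrps14: tcattcccaggtTTTTATgttctatgcatc
Mrpl14: tggagcagAATAAAtgTTTTAATgtatgtt
Mrpl3: gagatgaatagtAATAAAtggcttttgcaa
Mrps33: tattacaataatAATAAAtgctataaaggg
Mrps6: tgggagcagagtAATAAAcatgactttatc

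The CPE of Mrpl44 begins 85 bases before the annotated transcript end and that of Mrps14 begins 92 bases before it. In Mrpl14 the CPE begins 23 bases before the end, 8 bases downstream of the start of its hexamer. Mrpl3, Mrps33 and Mrps6 have a hexamer in the stretch shown and no CPE there. The stretches of Mrpl44 and Mrps14 end 67 and 74 bases before the transcript end. Each has a hexamer beyond the stretch, beginning 20 bases before the end in Mrpl44 and 29 in Mrps14. Over all 70 tested members, 10 (14.3%) had a CPE, against 20.1% of the 8547 tested protein-coding genes with a complete annotated 3′ end. The members' 3′ UTRs went down to 15 bases, so some had fewer bases to match, and the part of this in the shares was not tested. An AATAAA was present in 51.4% of the members and in 62.7% of those genes. Only the mRNA strand was searched, and the AAT that closes a TTTTAAT can also open an AATAAA. A match describes these letters and not a site in use, and no match says only that the letters are not in the window.

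The 76 members differed widely in level. Mrps33, a small-subunit protein of the head, was the most abundant per length, with a mean of 167 FPKM over the 18 libraries, followed by Mrpl34 with 80.1, Mrpl18 with 50.8, Mrpl55 with 38.8 and Mrpl24 with 38.6. Mrpl34 is the counterpart of a small bacterial protein of the large subunit, and Mrpl24 lines the region of the exit tunnel. At the low end, 6 members did not reach 1 FPKM in at least 3 libraries and were not tested: Mrpl13, Mrpl19, Mrpl23, Mrpl33, Mrps10 and Mrps26. Their highest value in any library was 2.18 FPKM, and their annotated exons were long, at 4358 to 8079 bases against a median of 2143 for the tested members. The counts that follow are over the 70 that passed this filter. Reads of near-identical copies could have been split by the counting: the pseudogenes Mrpl48-ps, Mrps36-ps1 and Mrpl23-ps1 reached 19.4, 8.15 and 2.91 FPKM, so Mrpl48, Mrps36 and Mrpl23 are uncertain.

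**Figure D1:**
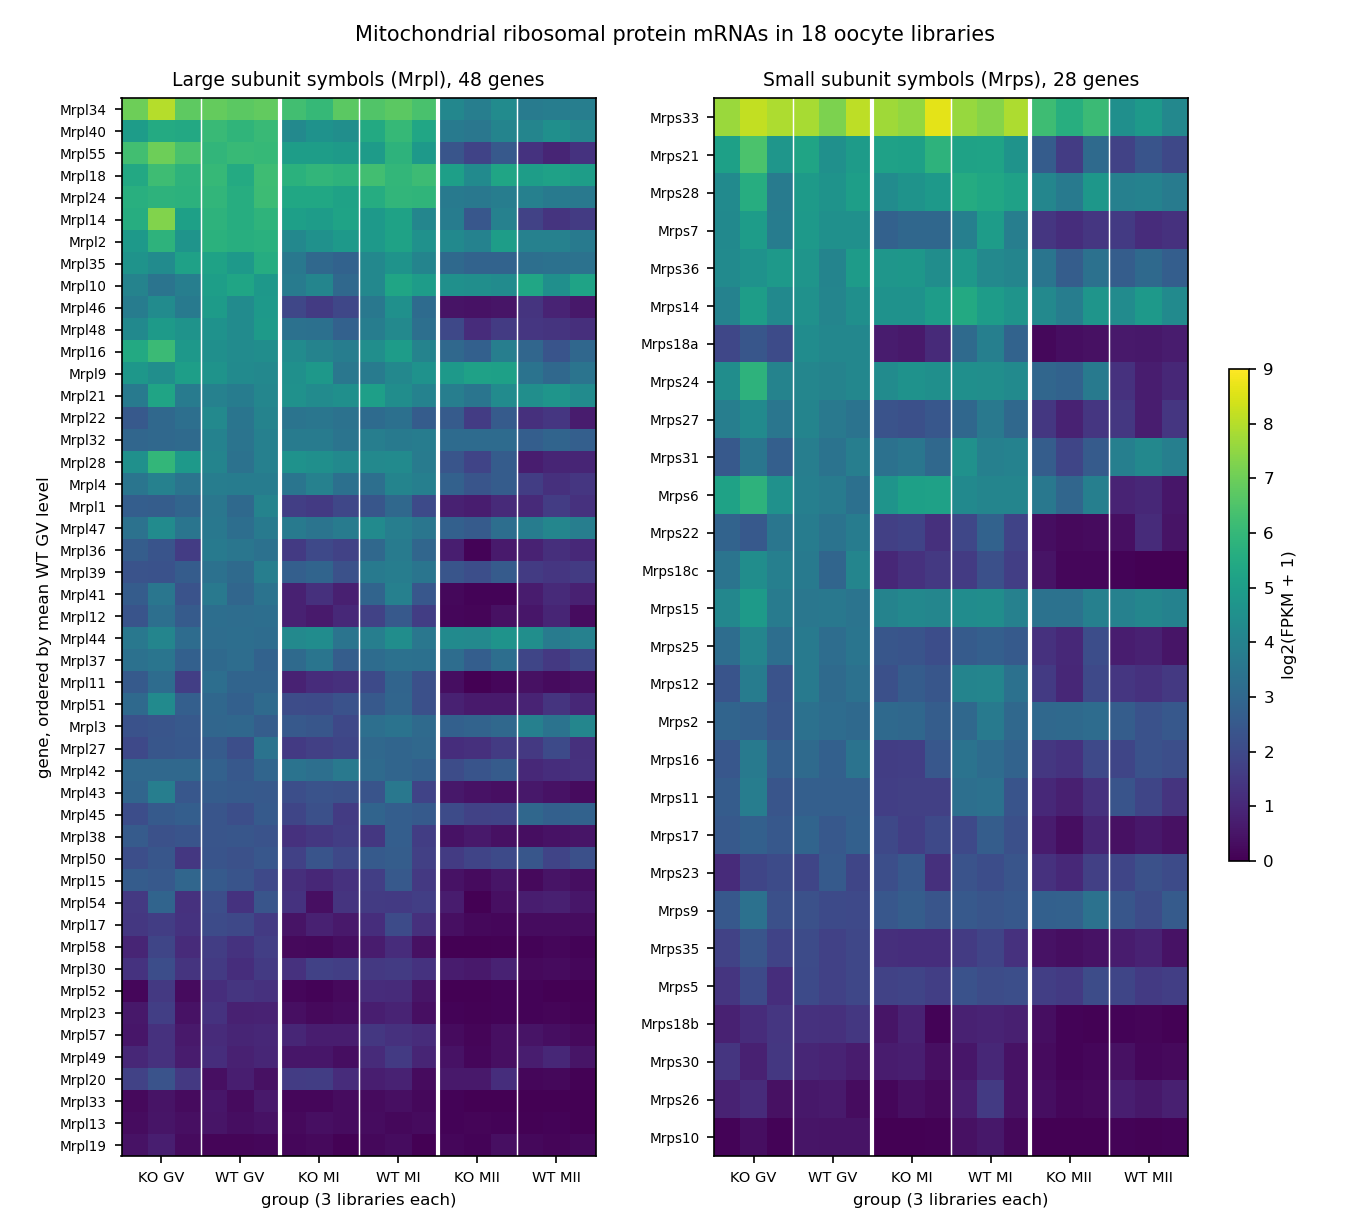
Level of each of the 76 members in each library as log2(FPKM + 1), for symbols with the Mrpl prefix (left) and the Mrps prefix (right); columns are the 18 libraries, KO before WT within GV, MI and MII, and rows are ordered by the mean in WT GV. Most rows are darkest in the MII columns, and KO GV replicate 2 is brighter than its 2 companions in many rows.

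The summed level of the set was 1466 ± 497 FPKM in KO GV and 1342 ± 176 FPKM in WT GV, 1018 ± 125 FPKM in KO MI and 1187 ± 122 FPKM in WT MI, and 453 ± 96.7 FPKM in KO MII and 381 ± 13.3 FPKM in WT MII (SD, n = 3 each). It was lower at MII than at GV and MI in every library of either genotype. The number of members at 1 FPKM or more was 65 to 71 in KO GV and 66 to 69 in WT GV libraries, and it was 43 to 47 in KO MII and 43 to 44 in WT MII libraries. KO and WT libraries overlapped in this number at GV and at MII, while KO MI libraries had 59 to 62 and WT MI libraries 64 to 69. The median member stood at 3.54 to 4.10 FPKM in KO MI libraries, below the 6.37 to 9.54 FPKM of WT MI libraries.

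Over maturation as a whole, measured levels of the mRNAs of the mitochondrial ribosome fell in both genotypes. In KO oocytes 51 of 70 members were lower at MII than at GV and 1 was higher, beside 25.4% of all 10320 tested genes lower and 11.9% higher. In WT oocytes 55 were lower and 2 were higher, beside 28.8% of all genes lower and 28.9% higher. The median log2 change of the members was -1.33 in KO and -1.70 in WT, against -0.07 in KO and 0.09 in WT over all tested genes. The calls used limma on log2(FPKM + 1) with Benjamini-Hochberg adjustment over all tested genes, and no library is shared by these 2 comparisons. Lower in both genotypes were 46 members, which is 90.2% of the 51 in KO and 83.6% of the 55 in WT. No share over all tested genes stands beside this overlap or beside the overlaps of paired comparisons below. These overlaps are therefore not read as a trait of the members. Calls held without any 1 library for 44 of the 51 and for 50 of the 55. The counting is not stated to use strand, so exon bases shared with a gene on either strand are named below where they exceed 10% of a member.

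Mrpl55, a large-subunit protein with no bacterial counterpart, showed the steepest fall in both genotypes (chr11:59202486-59206134, plus strand). It had 4.17, 2.53 and 4.65 FPKM in KO MII libraries, against 75.8, 129.8 and 84.1 FPKM in KO GV libraries (log2 change -4.34, SE 0.27, adjusted p = 9.38e-10). In WT it had 1.5, 0.888 and 1.5 FPKM at MII, against 60.0, 65.5 and 63.9 FPKM at GV (log2 change -4.82, SE 0.27, adjusted p = 9.88e-11). No library of one stage reached the range of the other in either genotype. Mrps18c, a small-subunit protein related to bacterial S18, had 0.398, 0.115 and 0.114 FPKM in KO MII and 9.95, 20.3 and 13.9 FPKM in KO GV libraries. In WT it had 0.0551, 0 and 0 FPKM at MII and 11.8, 6.58 and 16.1 FPKM at GV, so that 2 of 3 WT MII libraries listed it at 0. Of its exon bases 23.2% are shared with another gene.

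Mrpl46, of the central protuberance, had 0.389, 0.35 and 0.432 FPKM in KO MII libraries and 12.7, 19.5 and 12 FPKM in KO GV libraries (log2 change -3.47, SE 0.30, adjusted p = 5.07e-08). It had 1.55, 0.859 and 0.478 FPKM in WT MII and 29.6, 19.5 and 28.6 FPKM in WT GV libraries (log2 change -3.79, SE 0.30, adjusted p = 1.09e-08). Mrpl48, of the same structure, fell too, with log2 changes of -3.05 in KO and -3.28 in WT. Mrps7, a head protein that binds the small-subunit rRNA, changed by -2.99 in KO and by -3.31 in WT, and Mrpl34 by -3.14 in KO and -2.99 in WT. Of the exon bases, 12.2% in Mrpl46, 11.9% in Mrps7, 13.1% in Mrpl12, 10.1% in Mrpl18 and 26.3% in Mrpl24 are shared. Mrpl24 had 12.1, 11.1 and 12.9 FPKM in KO MII and 50.0, 55.9 and 54.5 FPKM in KO GV libraries, and 14.3, 12.2 and 11.5 FPKM in WT MII and 60.0, 47.6 and 71 FPKM in WT GV libraries. Its groups were separated by a wide gap at these stages in both genotypes (log2 change -2.06, SE 0.20, adjusted p = 1.86e-07 in KO; log2 change -2.13, SE 0.20, adjusted p = 7.64e-08 in WT).

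**Figure D2:**
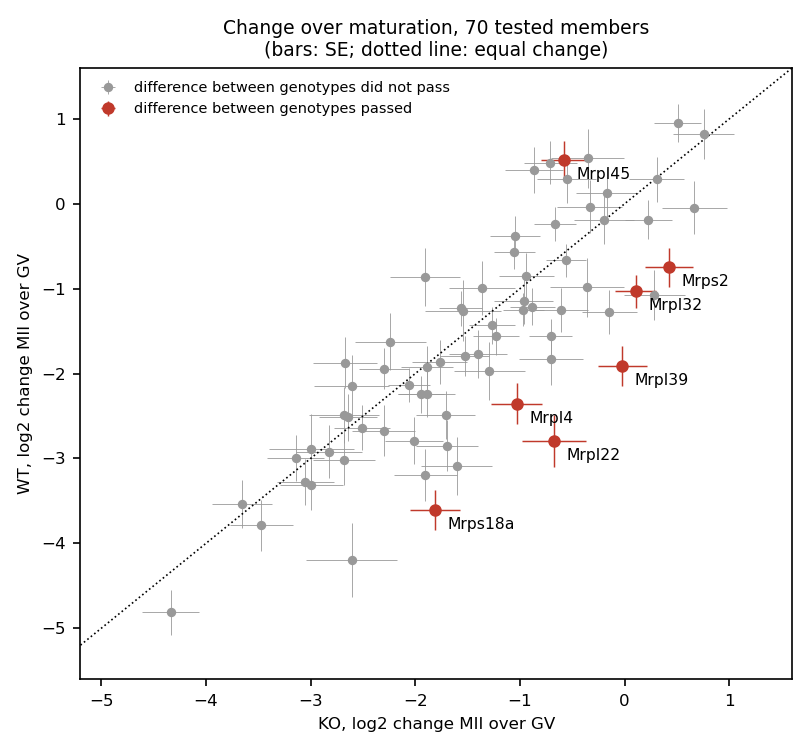
Change from GV to MII of the 70 tested members, KO on the x axis and WT on the y axis, both as log2 changes of FPKM + 1 with their SE. Most points lie in the lower left quadrant near the dotted line of equal change; the 7 red points passed the test of the difference between genotypes, 6 below the line and Mrpl45 above it.

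A few members went the other way or did not pass. Mrpl44, a large-subunit protein with a ribonuclease III-like fold, was the only member called higher at MII than at GV in KO, and it was called in WT too (chr1:79776018-79781445, plus strand). It had 18.6, 17.6 and 23.9 FPKM in KO MII and 11.3, 16 and 8.05 FPKM in KO GV libraries (log2 change 0.76, SE 0.29, adjusted p = 0.0499), and 20.8, 12.4 and 14.6 FPKM in WT MII and 8.37, 8.61 and 8.17 FPKM in WT GV libraries (log2 change 0.82, SE 0.29, adjusted p = 0.0231). The stages did not overlap in either genotype. The KO call was lost without any 1 of 13 libraries (adjusted p up to 0.176, without KO GV replicate 3), and the WT call without WT GV replicate 1 or 3 or WT MII replicate 1 (up to 0.118). With voom the KO call was lost as well. Mrpl3, a protein near the peptidyl transferase centre, rose in WT to 14.3, 9.72 and 16.5 FPKM at MII, against 6.79, 7.01 and 5.36 FPKM at GV (log2 change 0.95, SE 0.23, adjusted p = 0.00161). In KO it had 5.81, 6.37 and 7.14 FPKM at MII and 3.77, 4.21 and 4.73 FPKM at GV, which did not pass (adjusted p = 0.0847). Passing in neither genotype were 8 members: Mrpl10, Mrpl21, Mrpl50, Mrps5, Mrps9, Mrps14, Mrps23 and Mrps31.

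The steps of the fall were counted apart. From GV to MI, 28 members were lower and 1 higher at MI in KO, beside 10.4% of all genes lower and 2.53% higher. In WT 6 were lower and 0 higher at MI, beside 2.06% of all genes lower and 2.75% higher; at an unadjusted p under 0.05 limma had 16 lower and 3 higher, and voom called 5 lower and 0 higher. The median log2 change was -0.54 in KO and -0.10 in WT, and this difference between genotypes was not tested. The 6 in WT, Mrpl1, Mrpl12, Mrpl58, Mrps18a, Mrps18c and Mrps22, were all among the 28 in KO, of which they are 21.4%. The WT count was 22 lower under median-of-ratios scaling and 19 under quantile normalization, which moved the all-gene median of 0.24 to -0.02 and 0.04. It was 14 without KO GV replicate 2, 11 without KO GV replicate 3, 10 without WT MI replicate 2, 3 without WT GV replicate 2 or WT MI replicate 3, 2 without WT GV replicate 3, and 1 without WT GV replicate 1 or WT MI replicate 1. Mrps18c alone among the 6 kept its call without any 1 library, with 1.98, 3.55 and 2.19 FPKM in WT MI and 11.8, 6.58 and 16.1 FPKM in WT GV libraries (log2 change -1.75, SE 0.29, adjusted p = 0.00331). In KO the calls numbered 18 without KO MI replicate 1, and 10 in a fit of those 6 libraries alone.

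Among the members that had fallen by MI in KO, the stalk protein Mrpl12 had 0.793, 0.57 and 1.03 FPKM in KO MI and 4.01, 8.88 and 4.93 FPKM in KO GV libraries (log2 change -1.90, SE 0.27, adjusted p = 8.93e-05). In WT it had 2.4, 4.78 and 2.13 FPKM at MI and 8.55, 8.24 and 8.49 FPKM at GV (log2 change -1.26, SE 0.27, adjusted p = 0.0164). Mrpl46 changed by -2.14 log2 in KO from GV to MI, Mrpl15 by -1.54 and Mrpl35 by -1.54, and these 3 calls held without any 1 library. The 1 member called higher at MI than at GV in KO was Mrpl32, a large-subunit protein cut to its mature form by the m-AAA protease in yeast and mammals. It had 12.3, 12.5 and 10.1 FPKM in KO MI and 6.81, 7.27 and 7.66 FPKM in KO GV libraries (log2 change 0.61, SE 0.19, adjusted p = 0.0442), with no overlap, and the call was lost without any 1 of 11 libraries (adjusted p up to 0.142, without KO MI replicate 1), with voom and under median-of-ratios scaling.

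From MI to MII more members were called in WT than in KO. In KO 29 members were lower and 0 higher at MII, beside 10% of all genes lower and 1.87% higher, with a median log2 change of -0.76. In WT 53 were lower and 0 higher, beside 28% of all genes lower and 5.01% higher, with a median of -1.40. At an unadjusted p under 0.05 limma had 3 higher in KO and 1 higher in WT, and voom called 0 higher in either. Lower in both were 28, which is 96.6% of those in KO and 52.8% of those in WT. Without KO MII replicate 2 the KO count was 18, and with voom it was 39. Mrps21, a small-subunit protein of the platform, had 5.13, 2.01 and 7.7 FPKM in KO MII and 34.3, 33.7 and 56 FPKM in KO MI libraries (log2 change -2.92, SE 0.41, adjusted p = 6.89e-05), and in WT 2.41, 4.11 and 2.83 FPKM at MII and 35.4, 35.9 and 23.8 FPKM at MI (log2 change -2.99, SE 0.41, adjusted p = 1.21e-05). Its stages were far apart in both genotypes. Mrps6 and Mrps24, both small-subunit proteins, had among the largest WT changes of this step (-3.35 and -3.39 log2) and smaller changes in KO (-1.48 and -1.31 log2).

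At GV, before maturation, KO and WT oocytes differed in 13 members. In KO 5 were higher, beside 13.3% of all genes higher, and 8 were lower, beside 7.49% of all genes lower. These are 7.14% and 11.4% of the members. The members' median log2 change was -0.07, against 0.17 over all genes. Median-of-ratios scaling moved the all-gene median to -0.02 and gave 4 higher and 21 lower; quantile normalization gave 5 and 20, and scaling every library to 1 sum (TPM) gave 5 and 5. Relative to the all-gene median the members' median was -0.24 as deposited, -0.29 under median-of-ratios scaling, -0.21 under quantile normalization and -0.29 under TPM. The count was 8 without KO GV replicate 1 and 7 without WT GV replicate 1 or 3. In a fit of the 6 GV libraries alone 3 members passed, Mrpl20 higher and Mrps18a and Mrpl10 lower, and the other 10 did not. The summed cumulus and granulosa markers were 7.99, 10.2 and 8.77 FPKM in KO GV libraries and 7.82, 5.59 and 4.78 FPKM in WT GV libraries, without overlap, with 5 to 6 of the 15 at 0 in either genotype. Of the 4 that were tested 2 were called higher in KO at GV, and their part in the differences at this stage was not tested.

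Mrps18a, which despite its symbol is a protein of the large subunit, had the largest difference at GV (chr17:46110986-46128910, plus strand). It had 2.8, 4.37 and 3.15 FPKM in KO GV libraries, against 19.7, 17.2 and 16.7 FPKM in WT GV libraries (log2 change -2.10, SE 0.24, adjusted p = 1.94e-05). The highest KO library was far below the lowest WT library, and 156 to 238 reads in KO and 879 to 1107 reads in WT stood behind the values. Mrpl36, a small zinc-binding protein added late to the large subunit, had 5.35, 4.08 and 2.03 FPKM in KO and 11.8, 10.6 and 9.32 FPKM in WT (log2 change -1.32, SE 0.28, adjusted p = 0.00402). Mrpl10, the base of the stalk that holds Mrpl12, had 15.3, 9.95 and 13.5 FPKM in KO and 31.8, 38.5 and 27.2 FPKM in WT (log2 change -1.28, SE 0.31, adjusted p = 0.00976). The groups of both were separate. Both calls held without any 1 library, but in the fit of the GV libraries alone Mrpl36 did not pass (adjusted p = 0.0691). In Mrpl10 14.1% of exon bases are shared with another gene. The other lower members were Mrpl39, Mrpl32, Mrpl22, Mrpl40 and Mrpl1, with log2 changes of -1.05, -0.75, -0.99, -0.72 and -0.81, of which Mrpl39 alone held without any 1 library; with the GV libraries alone it had an adjusted p of 0.0829.

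The higher members at GV were Mrps6, Mrpl20, Mrpl28, Mrpl16 and Mrps15. Mrps6, the counterpart of a bacterial platform protein, had 35.3, 55.3 and 22.4 FPKM in KO and 13.8, 12.5 and 9.08 FPKM in WT (log2 change 1.52, SE 0.30, adjusted p = 0.00231; chr16:92058270-92112227, plus strand). Of its exon bases 19.9% are shared with another gene. Mrpl28, which has a bacterial counterpart of the same number, had 21.9, 61.8 and 27.4 FPKM in KO and 15.6, 9.48 and 14.1 FPKM in WT (log2 change 1.32, SE 0.31, adjusted p = 0.00828). In both, KO GV replicate 2 was the highest library, and the other 2 KO libraries were also above every WT library. With the GV libraries alone neither passed (adjusted p = 0.0633 for Mrps6 and 0.112 for Mrpl28). The calls of Mrpl16 and Mrps15 were lost without KO GV replicate 2, at adjusted p = 0.177 for Mrpl16 and 0.25 for Mrps15, and without several other single libraries.

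At MI the called differences went mostly one way. In KO 23 of 70 members were lower, beside 13.7% of all genes lower, and 1 was higher, beside 3.63% of all genes higher. The 23 are 32.9% of the members. The median log2 change of the members was -0.41, against -0.13 over all genes. Under median-of-ratios scaling, which moved the all-gene median to 0.01, 21 were lower and 3 higher, and the members' median less that of all genes was -0.27, against -0.28 as deposited. Calls of 13 of the 23 held without any 1 library, and the total of 24 calls ranged from 16, without WT MI replicate 2, to 29.

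Mrps18a was again the most different, with 0.625, 0.52 and 1.08 FPKM in KO MI libraries, against 7.6, 13.8 and 6.37 FPKM in WT MI libraries (log2 change -2.50, SE 0.24, adjusted p = 1.51e-06). Mrpl41, a large-subunit protein with no bacterial counterpart, had 0.752, 1.38 and 0.75 FPKM in KO and 6.41, 14 and 4.49 FPKM in WT (log2 change -2.13, SE 0.33, adjusted p = 0.000252; chr2:24974117-24975098, minus strand). Mrpl46 had 2.79, 1.97 and 2.78 FPKM in KO and 11, 21.8 and 7.94 FPKM in WT (log2 change -1.95, SE 0.30, adjusted p = 0.000256; chr7:78775236-78783531, minus strand). In all of these the KO libraries lay together and below every WT library, while WT MI replicate 2 was the highest. In that library the 5 blood markers summed to 29.8 FPKM, against 0.928 and 1.13 FPKM in the other WT MI libraries and 1.49 to 2.17 FPKM in KO MI libraries, and their part in these values was not tested. Mrpl46 and Mrps11 start head to head on opposite strands of chromosome 7 with overlapping first exons, and Mrps11 was lower at MI as well, with 2.15, 2.22 and 2.26 FPKM in KO and 8.81, 9.22 and 4.03 FPKM in WT (log2 change -1.31, SE 0.34, adjusted p = 0.0118; chr7:78783119-78792989, plus strand). The call of Mrps11 was lost without WT MI replicate 2 (adjusted p = 0.0658) or replicate 1, while that of Mrpl46 held without any 1 library.

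Mrpl36, Mrpl40, Mrpl27, Mrpl39 and Mrpl3 followed by p-value. Mrpl36 had 1.88, 2.96 and 2.45 FPKM in KO and 7.2, 12.4 and 6.75 FPKM in WT (log2 change -1.48, SE 0.28, adjusted p = 0.0014). Mrpl40, of the central protuberance, had 18.1, 23.2 and 21 FPKM in KO and 42.7, 64 and 39.5 FPKM in WT (log2 change -1.17, SE 0.23, adjusted p = 0.00215). Mrpl27, also of the central protuberance, had 1.91, 2.25 and 2.64 FPKM in KO and 7.28, 6.69 and 7.29 FPKM in WT (log2 change -1.31, SE 0.28, adjusted p = 0.00326). The groups did not overlap in any of these, and the calls held without any 1 library. Mrpl3 had 4.68, 4.31 and 2.83 FPKM in KO and 8.84, 9.79 and 7.71 FPKM in WT (adjusted p = 0.00493), again with no overlap. All 3 tested proteins of the stalk, where translation factors dock, were among the 23: Mrpl10, Mrpl11 and Mrpl12, with log2 changes of -1.20, -1.30 and -1.14. The stalk was singled out after these values were seen, and 13.7% of all genes were lower. Also lower were 3 of 7 tested proteins of the central protuberance and 2 of 5 of the exit tunnel. In the small subunit 1 of 6 of the head and 3 of 9 of the body and platform were lower. Mrpl10 lost its call without KO MI replicate 3 or WT MI replicate 2 (adjusted p = 0.0775 without the WT library). Mrps12, of the decoding centre, had 3.62, 5.09 and 4.25 FPKM in KO and 15.6, 15.9 and 9.17 FPKM in WT (log2 change -1.42, SE 0.34, adjusted p = 0.00747). Mrpl20, the 1 member higher in KO at MI, had 2.04, 2.13 and 1.2 FPKM in KO and 0.677, 0.832 and 0.196 FPKM in WT (log2 change 0.84, SE 0.24, adjusted p = 0.0202). Without WT MI replicate 3 it did not pass (adjusted p = 0.0851), nor without KO MI replicate 1 or 2.

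**Figure D3:**
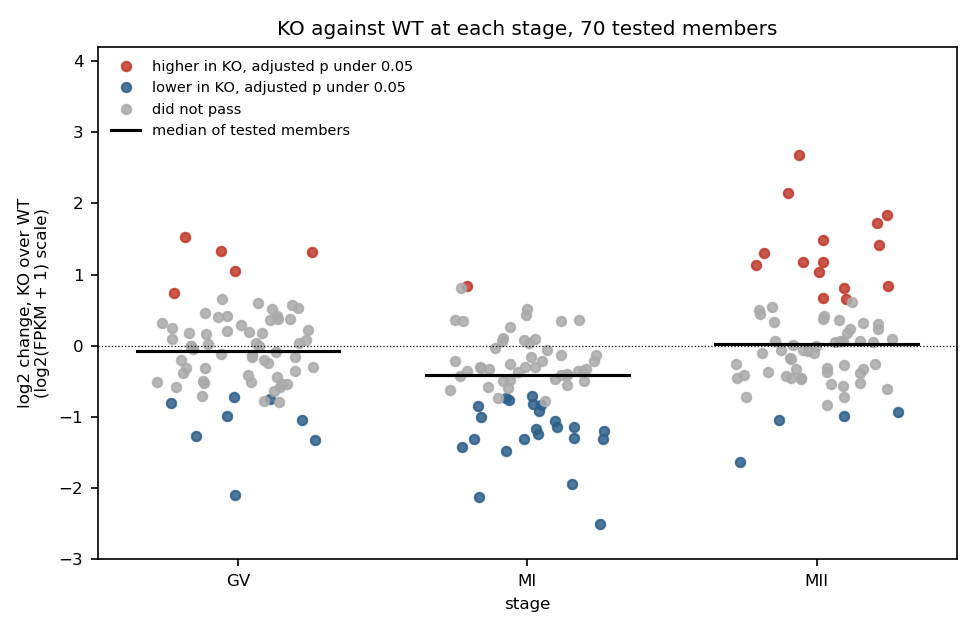
Log2 change of KO over WT at GV, MI and MII for each of the 70 tested members; red points were called higher and blue points lower in KO, grey points did not pass, and the black bar is the median of the tested members. The called points stand on both sides of 0 at GV (5 and 8), almost all below 0 at MI (1 and 23) and mostly above 0 at MII (15 and 4).

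At MII most called members were higher in KO. In KO 15 of 70 members were higher, beside 14.9% of all genes higher, and 4 were lower, beside 13.8% of all genes lower. These are 21.4% and 5.71% of the members. The median log2 change of the members was 0.03, against 0.01 over all genes. The split was 16 and 8 under quantile normalization, where the members' median was -0.03, and 17 and 10 with a pseudocount of 0.1 FPKM. Calls of 10 of the 15 and of all 4 held without any 1 library. Oocyte markers differed at this stage too: 8 of 14 were called higher and 1 lower in KO, with a median log2 change of 1.69, while their sums overlapped, at 20483 to 22376 FPKM in KO and 21642 to 24578 FPKM in WT. Whether this bears on the members was not tested.

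Among the members higher in KO at MII, the largest differences from WT were those of Mrps6 and Mrps24, both of the small subunit. Both were called lower at MII than at GV in KO as well as in WT. Mrps6 had 11.2, 6.81 and 13.7 FPKM in KO MII libraries, against 0.845, 0.981 and 0.467 FPKM in WT MII libraries (log2 change 2.68, SE 0.30, adjusted p = 3.18e-06). Behind these values stood 169 to 344 reads in KO and 12 to 25 reads in WT. The lowest KO library was several times the highest WT library. Mrps24, a head protein at the mRNA entry site, had 6.88, 6.07 and 11.7 FPKM in KO and 1.46, 0.663 and 1.01 FPKM in WT (log2 change 2.14, SE 0.34, adjusted p = 0.000116; chr11:5703983-5715680, minus strand). Mrps33 had 73, 49.4 and 69.3 FPKM in KO and 21.6, 27.8 and 17.5 FPKM in WT (log2 change 1.48, SE 0.30, adjusted p = 0.00113; chr6:39801804-39810988, minus strand). The groups were separate for both genes. Mrps33 had the highest mean of all members in KO MII libraries, and in WT MII libraries it came after Mrpl18 and Mrpl10. In Mrps24 15.4% and in Mrpl14 11.2% of exon bases are shared with another gene.

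In the large subunit, Mrpl14, which lies at the face toward the small subunit, had 12.6, 4.5 and 14.6 FPKM in KO and 2.44, 1.54 and 1.94 FPKM in WT (log2 change 1.83, SE 0.44, adjusted p = 0.00394; chr17:45686322-45698495, plus strand). Mrpl9, with a bacterial counterpart of the same number, had 27.5, 34.8 and 33.7 FPKM in KO and 9.68, 7.24 and 9.99 FPKM in WT (log2 change 1.73, SE 0.29, adjusted p = 0.000233; chr3:94443318-94451130, plus strand). No KO library of either gene was within the WT range. Mrpl28, Mrpl37, Mrpl42, Mrpl4 and Mrpl55 followed, with log2 changes of 1.42, 1.30, 1.17, 1.17 and 1.04. Mrpl28 had 4.13, 2.62 and 5.18 FPKM in KO and 0.652, 0.907 and 0.917 FPKM in WT. Mrpl4, with a bacterial counterpart of the same number, had 6.01, 4.18 and 5.17 FPKM in KO and 2.13, 1.35 and 1.67 FPKM in WT. The groups were separate for both. With a pseudocount of 5 FPKM Mrpl28 and Mrpl55 did not pass. Mrpl37, which has no bacterial counterpart, had 8.35, 5.45 and 8.61 FPKM in KO and 2.65, 1.79 and 2.8 FPKM in WT. Mrpl42, which has none either, had 3.27, 4.11 and 4.98 FPKM in KO and 1.06, 1.29 and 1.42 FPKM in WT. The remaining higher members, Mrpl22, Mrpl39, Mrps25, Mrps2 and Mrpl20, each lost the call without at least 1 library, and 69.8% of the exon bases of Mrps25 are shared with another gene.

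The 4 lower members at MII were Mrps31, Mrpl45, Mrpl3 and Mrpl47. Mrps31, a small-subunit protein with no bacterial counterpart, had 5.35, 2.65 and 4.92 FPKM in KO and 13.9, 17.5 and 13.9 FPKM in WT (log2 change -1.64, SE 0.28, adjusted p = 0.000286; chr8:22411361-22429665, plus strand). Mrpl45, which anchors the ribosome to the inner membrane, had 3.16, 2.41 and 2.52 FPKM in KO and 7.01, 5.85 and 6.11 FPKM in WT (log2 change -0.99, SE 0.22, adjusted p = 0.00238; chr11:97315716-97329920, plus strand). Mrpl3 had 5.81, 6.37 and 7.14 FPKM in KO and 14.3, 9.72 and 16.5 FPKM in WT (log2 change -0.94, SE 0.23, adjusted p = 0.00408). All KO libraries of the 3 genes were below all WT libraries. Mrps31, Mrpl45 and Mrpl3 were also lower in KO at MI. None of the 4 was called lower in WT at MII than at GV, but that comparison uses the same WT MII libraries and is no separate support. In KO, Mrpl45 and Mrpl47 were called lower at MII than at GV, and both calls were lost without several single libraries. Mrpl47, of the exit tunnel, had 5.85, 5.05 and 8.61 FPKM in KO and 12.8, 16.4 and 13.5 FPKM in WT (log2 change -1.04, SE 0.27, adjusted p = 0.00769), with 24.2% of its exon bases shared with another gene.

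The change between stages was compared directly between the genotypes by the difference of their log2 changes. From GV to MII, 6 members had a more positive change in KO, beside 3.88% of all genes, and 1 a more negative change, beside 1.73%. From MI to MII, 7 had a more positive change in KO, beside 4.33% of all genes, and 0 a more negative one, beside 0.0291%. At an unadjusted p under 0.05 limma had 14 and 5 for GV to MII and 28 and 0 for MI to MII, and voom called 8 and 0 for each. The first count was 14 and 1 under median-of-ratios scaling and 7 and 3 under TPM. Both rested on single libraries. The total for GV to MII was 14 without KO GV replicate 3, 11 without KO GV replicate 2, 4 without WT GV replicate 2 or WT MII replicate 1 or 2, and 3 without WT GV replicate 1 or 3, KO MII replicate 1 or WT MII replicate 3. That for MI to MII was 14 without KO GV replicate 2, 4 without KO MI replicate 3, WT MI replicate 2, KO MII replicate 1 or WT MII replicate 3, 3 without WT MII replicate 2, and 2 without KO MII replicate 3.

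Mrpl39, a large-subunit protein related in sequence to threonyl-tRNA synthetases, passed both (chr16:84717576-84735742, minus strand). In KO it had 3.94, 3.77 and 5.14 FPKM at GV, 5.54, 6.5 and 3.75 at MI and 4.2, 3.44 and 5.0 at MII, and the ranges overlap. In WT it had 9.33, 7.7 and 13.3 FPKM at GV, 12.1, 13.1 and 10.4 at MI and 1.99, 1.7 and 1.99 at MII, with the MII libraries far below the rest. It was lower in KO at GV (log2 change -1.05, SE 0.23, adjusted p = 0.0052) and at MI (log2 change -1.06, SE 0.23, adjusted p = 0.00407) and higher in KO at MII (log2 change 0.84, SE 0.23, adjusted p = 0.0105). Without KO MII replicate 3 the last call was lost (adjusted p = 0.0520), while the differences in change held without any 1 library (difference 1.89 log2, SE 0.33, adjusted p = 0.00225 for GV to MII; difference 1.90 log2, SE 0.33, adjusted p = 0.0027 for MI to MII).

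Mrpl22, a protein of the exit tunnel, had 4.65, 7.18 and 8.68 FPKM in KO GV and 17.9, 10.4 and 15.3 FPKM in WT GV libraries (chr11:58171661-58179565, plus strand). At MII it had 5.05, 2.02 and 5.05 FPKM in KO and 1.39, 1.67 and 0.627 FPKM in WT. It was lower in KO at GV and higher in KO at MII with no overlap at either stage, and the change from GV to MII differed between genotypes (difference 2.13 log2, SE 0.43, adjusted p = 0.00748). The call at GV was lost without KO GV replicate 1 (adjusted p = 0.126) or 2 or WT GV replicate 1 or 3, and that at MII without WT MII replicate 3 (adjusted p = 0.0571) or KO MII replicate 1. Mrps18a passed both differences too (difference 1.79 log2, SE 0.34, adjusted p = 0.00428 for GV to MII; difference 2.19 log2, SE 0.34, adjusted p = 0.00114 for MI to MII). It had 0.149, 0.268 and 0.332 FPKM in KO MII and 0.53, 0.511 and 0.60 FPKM in WT MII libraries, all under 1 FPKM, and KO against WT did not pass there (adjusted p = 0.363). The difference from GV to MII did not pass with a pseudocount of 0.1 FPKM (adjusted p = 0.0719) or with voom (adjusted p = 0.192).

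Mrps6 and Mrps24 differed in their change from MI to MII (difference 1.87 log2, SE 0.42, adjusted p = 0.0152 for Mrps6; difference 2.08 log2, SE 0.48, adjusted p = 0.0169 for Mrps24). Mrps24 had 19.1, 22.9 and 21.5 FPKM in KO MI and 21.4, 20.6 and 18.6 FPKM in WT MI libraries, which overlapped. Without KO MII replicate 3 neither passed, at adjusted p = 0.0531 for Mrps6 and 0.0578 for Mrps24, and without WT MII replicate 3 Mrps6 and without WT MII replicate 2 Mrps24 did not pass either. Both were also lost with a pseudocount of 5 FPKM and with no filter. Mrpl4, Mrpl9, Mrpl37, Mrpl32, Mrps2 and Mrpl45 passed 1 or both differences and lost the call without several single libraries, and Mrpl45 also under median-of-ratios scaling, quantile normalization and voom.

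**Figure D4:**
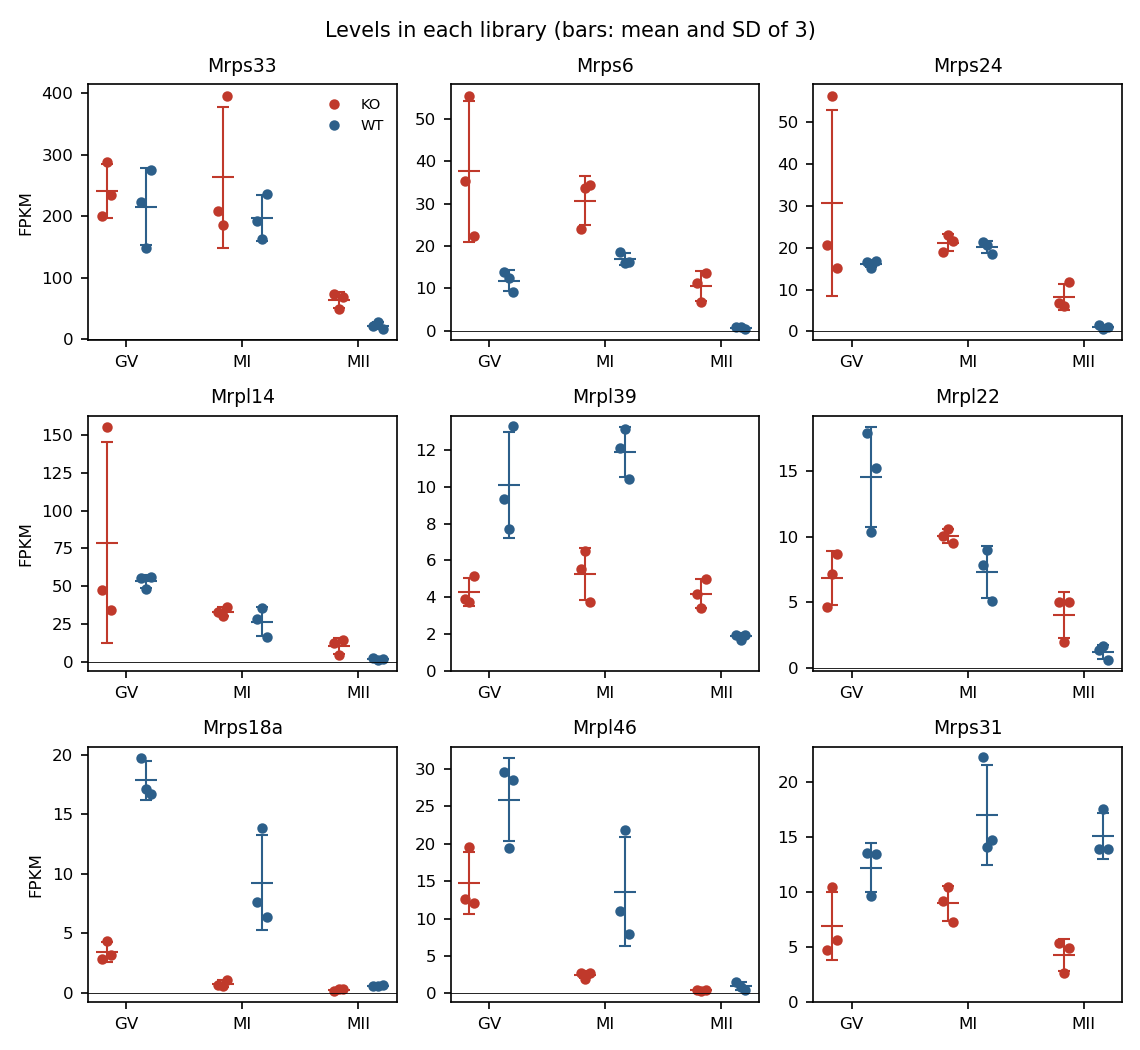
FPKM of 9 members in each library by stage, KO (red) left of WT (blue) at each stage; bars are the mean and SD of 3 libraries. Mrps33, Mrps6, Mrps24 and Mrpl14 are higher in KO at MII, Mrpl39 and Mrpl22 are lower in KO at GV and higher at MII, Mrps18a and Mrpl46 are lower in KO at MI, and Mrps31 is lower in KO at MII.

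Few members kept one direction through all stages. Mrpl20 was called higher in KO at GV, MI and MII, beside 1.71% of all genes, and no member was called lower at all 3, beside 3.39% of all genes. Mrpl20 had 2.38, 3.91 and 1.79 FPKM in KO GV and 0.277, 0.696 and 0.338 FPKM in WT GV libraries (log2 change 1.33, SE 0.24, adjusted p = 0.00115; chr4:155802878-155809975, plus strand). At MII it had 0.515, 0.52 and 1.29 FPKM in KO and 0.107, 0.146 and 0.037 FPKM in WT (log2 change 0.67, SE 0.24, adjusted p = 0.0421), with 1 to 4 reads in WT. The groups were separate at each stage, and the MII call was lost without KO MII replicate 3 (adjusted p = 0.198) and 5 other single libraries. Mrpl10, Mrpl36, Mrpl39, Mrpl40 and Mrps18a were lower in KO at both GV and MI, which is 62.5% of the 8 lower at GV and 21.7% of the 23 lower at MI. In all, 42 of the 70 members (60.0%) were called at 1 stage or more, beside 46.2% of all genes, and 28 at none. The 28 include abundant members such as Mrpl34, Mrpl18 and Mrpl24.

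Sorted by place in the ribosome, in groups drawn up after the values were seen, members of each place were mostly lower at MII than at GV, beside 25.4% of all genes lower in KO and 28.8% in WT. Of 7 tested proteins of the central protuberance, 7 were lower at MII than at GV in KO and 7 in WT. Of 5 of the exit tunnel, 4 were lower in KO and 3 in WT. Of 6 of the small-subunit head, 4 were lower in KO and 4 in WT, and of 9 of its body and platform, 8 in KO and 7 in WT. In KO against WT at MI, 16 of the 44 tested Mrpl symbols (36.4%) and 7 of the 26 tested Mrps symbols (26.9%) were lower, beside 13.7% of all genes. At MII 10 Mrpl symbols (22.7%) and 5 Mrps symbols (19.2%) were higher, beside 14.9% of all genes. Mrps30 also belongs to the large subunit, and Mrps36 is a subunit of the oxoglutarate dehydrogenase complex; neither passed in KO against WT at any stage. Mrps22, whose human counterpart is mutated in forms of ovarian dysgenesis, had 0.26, 0.186 and 0.199 FPKM in KO MII and 0.282, 1.17 and 0.385 FPKM in WT MII libraries, and did not pass at any stage in KO against WT.

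Genes that work with the mitochondrial ribosome were called in both directions in KO. Of all tested genes 13.3% were higher and 7.49% lower at GV. At MI the all-gene shares were 3.63% higher and 13.7% lower, and at MII 14.9% and 13.8%. The lists are small, and several of their shares lie near those of all genes. Of 5 tested ribosomal proteins with other symbols, 1 was lower at MI (Gadd45gip1), and at MII 2 were higher (Chchd1 and Dap3) and 1 lower (Gadd45gip1). Dap3 did not pass without any 1 of 10 libraries (adjusted p up to 0.113, without KO MII replicate 1) or under median-of-ratios or TPM scaling, and with a pseudocount of 5 FPKM neither Chchd1 nor Gadd45gip1 passed at MII. Gadd45gip1 had 1.07, 1.82 and 1.12 FPKM in KO MI and 6.63, 7.08 and 6.42 FPKM in WT MI libraries (log2 change -1.74, SE 0.24, adjusted p = 7.21e-05). Of 18 tested assembly factors, 1 (5.56%) was higher and 3 (16.7%) lower at GV, and 3 (16.7%) were lower at MI. At MII 1 (5.56%) was higher and 2 (11.1%) were lower. Gtpbp10, a GTPase that assembles the large subunit, was lower at each stage, and at MII it had 0.51, 0.272 and 0.394 FPKM in KO and 7.39, 5.38 and 5.34 FPKM in WT (log2 change -2.33, SE 0.20, adjusted p = 1.79e-07). Mettl15, a methyltransferase of the small-subunit rRNA, was also lower at each stage, with 3.23, 2.69 and 2.74 FPKM in KO MII and 7.79, 9.25 and 10.8 FPKM in WT MII libraries (log2 change -1.39, SE 0.20, adjusted p = 5.71e-05). The groups of both genes were separate at every stage. With the GV libraries alone Gtpbp10 did not pass at GV (adjusted p = 0.0528).

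The next counts stand beside the same all-gene shares. Of 10 tested translation factors 1 (10%) was higher at GV (Mtif2), 1 (10%) lower at MI (Mtif3) and 2 (20%) lower at MII (Mtif3 and Tsfm). The call of Mtif3 was lost at MI without KO MI replicate 1 or 3 or WT MI replicate 1 or 2 (adjusted p up to 0.087), and at MII without any 1 of 14 libraries (up to 0.119) or with no filter. That of Mtif2 was lost without KO GV replicate 2 or WT GV replicate 1 or 2. Of 7 tested aminoacyl-tRNA synthetase genes, out of 20 in the table, Fars2 was the 1 called, higher at GV, and not without KO GV replicate 2 or WT GV replicate 3. Of 14 tested genes of mitochondrial transcription and mRNA stability, 1 was higher and 1 lower at GV (7.14% each). At MI 3 (21.4%) were lower, and at MII 1 (7.14%) was higher and 3 (21.4%) were lower. Polrmt, the mitochondrial RNA polymerase, had 0.441, 0.559 and 0.763 FPKM in KO MI and 2.33, 7.1 and 5.14 FPKM in WT MI libraries (log2 change -1.80, SE 0.26, adjusted p = 0.000138), with no overlap.

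Sets of similar function are given beside the members. Of 71 tested cytosolic ribosomal proteins, 22 (31.0%) were called at GV, all higher in KO, beside 13.3% of all genes higher. At MI 4 were higher and 4 lower (5.63% each), beside 3.63% and 13.7% of all genes. At MII 22 (31.0%) were higher and 1 (1.41%) lower, beside 14.9% and 13.8%. Of 77 tested nuclear-encoded subunits of the respiratory complexes, 16 (20.8%) were called at GV, all higher in KO. At MI 1 (1.30%) was higher and 5 (6.49%) were lower, and at MII 39 (50.6%) were called, all higher. From GV to MII, 66 (93.0%) of the cytosolic ribosomal proteins were lower in KO and 64 (90.1%) in WT. Of the respiratory subunits 53 (68.8%) were lower in KO and 64 (83.1%) in WT. Of all genes 25.4% were lower in KO and 28.8% in WT. Whether mitochondrial ribosomal proteins differ from them was not tested. The mRNAs of the mitochondrial genome, which this ribosome translates, went the other way over maturation. Of 12 tested, 6 in KO and 12 in WT were higher at MII than at GV, beside 11.9% and 28.9% of all genes. In KO against WT 2 of the 12 (16.7%) were called, both lower at MII, beside 13.8% of all genes lower.

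The members have short 3′ UTRs, with a median of 369.5 bases against 993 over the 8547 tested protein-coding genes with a complete annotated 3′ end. The 55 members lower in WT at MII than at GV had a median of 327 bases, against 499 bases for the 2372 such genes, and 6 of them (10.9%) had a CPE, against 9.82%. The 2 members that were higher, Mrpl44 and Mrpl3, had a median of 1525 bases, against 1575 bases for the 2716 such genes. A CPE was present in 1 of the 2 members and in 29.1% of those genes, and 2 members are too few to compare. Across the 70 members, 3′ UTR length and the WT log2 change from GV to MII had a Spearman rank correlation of 0.14, and across all genes of 0.35. In KO against WT at MII the correlation was -0.23 across the members and -0.16 across all genes, and at MI it was -0.21 and 0.08. Genes share libraries and are not independent replicates, so no p is given, and values of this size within the members are no finding. The 15 members higher in KO at MII had a median 3′ UTR of 302 bases and the 4 lower ones of 1774.5 bases, against 685.5 and 1198.5 bases for all genes called in those directions.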

How the data were processed

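Polyadenylated RNA of 15 oocytes per library was amplified by Smart-seq2 from an oligo(dT) primer and sequenced, per the labels' protocols. The authors deposited 1 table of FPKM values per gene and library. Per the submitters' processing notes, the build was mm10, and DESeq2 1.38.3 is listed with no stated use; aligner, annotation and use of strand: not given in the sources used here. Of 27874 identifiers 27829 were found in GENCODE vM21, and members were taken by symbol. FPKM times exon length came out as whole reads within 0.05 for 92.8% to 93.3% of nonzero values, which gave the reads per library. Without molecular identifiers PCR copies count as reads, so read numbers describe counting error alone.

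A gene was tested where 3 or more of the 18 libraries had 1 FPKM or more (10320 genes). limma 3.58.1 in R 4.3.3 was fitted to log2(FPKM + 1), a scale that understates the change of low genes, with 6 group means in 1 model (12 residual degrees of freedom) and a mean-dependent prior variance. For each comparison the two-sided p-values of all tested genes were adjusted together (Benjamini-Hochberg), with 0.05 as threshold. The procedure was also run on simulated data with independent noise of equal spread in all libraries. The spread of these libraries was not equal, so that run does not vouch for the calls. Other steps used Python 3.11.15 with pandas 2.3.3, numpy 2.4.6, matplotlib 3.10.9 and scipy 1.17.1.

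Members and gene lists were chosen with earlier results of these data known; the places in the ribosome, the 3′ UTR comparison and the printed sequences were chosen after the values were seen. Named in each comparison are the called members of smallest p (up to 12 each way at MII, 8 at GV and MI, 6 in MII against GV, 5 elsewhere), the 5 most abundant, those against the main direction, those at all 3 stages and those not tested. Mrps11, Mrps12, Mrps14, Mrps22, Mrps30, Mrps36 and the stalk proteins at MI were named after their values were seen, and other names complete a count. The alternatives tried were pseudocounts of 0.1 and 5 FPKM, no filter or 5 FPKM as filter, 3 scalings, a fit of the compared groups alone, a replicate block, voom on the recovered reads, library weights, a 2-fold minimum, and the omission of each library.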

Additional observations from a re-analysis of the deposited data

Results flagged for a closer look

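The change between stages differed between KO and WT in these members by a test of the difference itself (limma, adjusted p under 0.05), given as KO minus WT in log2. From GV to MII it was 1.89 for Mrpl39, 1.79 for Mrps18a, 2.13 for Mrpl22, 1.14 for Mrpl32, 1.33 for Mrpl4, 1.17 for Mrps2 and -1.09 for Mrpl45. From MI to MII it was 2.19 for Mrps18a, 1.90 for Mrpl39, 1.87 for Mrps6, 2.08 for Mrps24, 1.52 for Mrpl37, 1.62 for Mrpl9 and 1.33 for Mrpl4. Mrpl22 was lower in every KO than in every WT library at GV (-0.99). At MI it was higher in every KO than in every WT library (0.44), but this did not pass (limma, adjusted p = 0.356). This difference between GV and MI was not tested. Mrpl32, Mrpl39, Mrps15, Mrps18c, Mrps2 and Mrps25 also had opposite directions without overlap, between MII and an earlier stage. No share over all genes stands beside this pattern, so it is not read as a trait of the members.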

How the results depend on the processing

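Counts of called members moved by over 1.5 times in these fits. KO against WT at GV had 13 calls, and 25 under median-of-ratios scaling, 25 under quantile normalization, 36 with library weights, 3 with only the groups compared, 8 with a 2-fold minimum and 7 to 17 without 1 library. KO against WT at MII had 19, and 32 with library weights. WT MI against GV had 6, and 2 with a pseudocount of 0.1, 3 with no filter, 22 and 19 under the same scalings, 24 with library weights and 1 to 14 without 1 library. KO MI against GV had 29, and 10 with only the groups compared and 18 to 31 without 1 library. KO MII against MI had 29, and 18 with a pseudocount of 5, 46 with library weights and 18 to 36 without 1 library. The genotype difference from GV to MII had 7, and 4 with no filter, 15 and 12 under the same scalings, 32 with library weights and 3 to 14 without 1 library. The genotype difference from MI to MII had 7, and 11 with a pseudocount of 0.1, 3 with one of 5, 2 with no filter, 25 with library weights, 11 with only the groups compared and 2 to 14 without 1 library. The other counts stayed within 1.5 times in every fit run. Of 125 named results 70 kept their call in every fit, 86 without any 1 library, and 0 changed direction. The default estimate of library weights did not converge, so a gene-by-gene estimate was used, chosen after that was seen; it gave KO GV replicates 2 and 3 the lowest weights, 0.210 and 0.244. Replicate numbers are not stated to pair the libraries. Deviations of same-numbered KO and WT libraries of a stage correlated at -0.172 to 0.362, and those of differently numbered ones at -0.433 to 0.414. With 3 libraries per group these values cannot decide whether libraries were paired. With the replicate block 11 members were called at GV, 22 at MI and 19 at MII. Depth limits the low members most: Mrpl41 rested on 1 to 2 reads in KO MII libraries.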
